A study of Homo sapiens with 4 samples.

Results

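The circular RNAs of ARHGAP5 comprised 81 of the 211599 back-splice positions in the deposited count table, chosen as every row that names this gene and is not typed as antisense. Of the 81 circles, 66 had at least 1 count, and together they held 22206 counts. The gene was selected on its circle counts, which were already known to be higher after HNRNPL knockdown, so the differences between the groups given below are descriptions and carry no test. The libraries were made from MDA-MB-468 cells, a widely used line of human breast cancer, that had been made radioresistant with fractionated doses adding up to 50 Gy. The study asked which circular RNAs depend on HNRNPL. The 2 control libraries carried a control short hairpin RNA (shCtrl) and the 2 knockdown libraries a stable hairpin against HNRNPL (shHNRNPL), and the labels call them biological replicates. All 4 libraries shared the irradiation history. The extraction protocol names a single hairpin against HNRNPL, and a group of 2 libraries limits every value given.

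ARHGAP5 encodes a large GTPase-activating protein, one of a class of enzymes that switch small GTPases off by speeding the hydrolysis of GTP. It has been studied for its part in mammary gland growth. A circular RNA forms when a downstream splice donor is joined back to an upstream acceptor, which is called a back-splice. HNRNPL is an RNA-binding protein that prefers CA-rich RNA and regulates splicing. Circles were read as long nanopore reads after reverse transcription with Induro, an enzyme able to copy a circle several times over, and amplification with phi29 polymerase. The reads carry no molecular identifiers, so counting intervals are a lower limit on the error.

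The libraries held between 282737 and 556578 counts, and a count of 0 allows up to between 0.539 and 1.06 per 100000 (3 counts, counting error only). Control replicate 1 stood apart before any comparison: 70.9% of its counts were in exon circles, against between 84.9% and 85.7% in the others, and 19.7% were in intron circles, against between 9.93% and 10.6%. HNRNPL itself had 0 rows in the table examined, so the loss of the target is taken from the labels alone. Of 9 epithelial markers, 7 had circles, summing to 120 and 81 per 100000 in controls against 54.8 and 53.5 in knockdowns, with KRT17 and KRT18 at 0. Both knockdowns thus lay below both controls for this sum, and the markers are not given singly. Over 5911 host genes with at least 10 counts, 36.1% were lower in the knockdowns without overlap. All 10 leukocyte, endothelial and fibroblast markers were at 0 in the 4 libraries. Circles report on these markers only where the gene forms circles.

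All 81 circles lay within the RefSeq span of the gene, chromosome 14, 32077304 to 32159728 of GRCh38.p14, on the plus strand (1 row has no strand). Coordinates are those of the deposited table, with both ends included. Circles 1 to 6, the 6 with the most counts, are built from blocks that are numbered here, with 2 others, as 1 to 7 in transcript order. Block 1 was listed in 1 isoform only, and some rare circles use none of the 7 blocks. The first (32077304 to 32077435, 132 nt) begins at the RefSeq gene start. The second (32090502 to 32094386) is 3885 nt long, and lies 13066 nt after the first and 22753 nt before the third. Blocks 3 to 6 are short, with 148, 78, 132 and 106 nt. Block 3 spans 32117140 to 32117287, block 4 spans 32146263 to 32146340, block 5 spans 32149902 to 32150033 and block 6 spans 32152423 to 32152528. The gap between blocks 3 and 4 is 28975 nt, and the later gaps are 3561, 2389 and 2092 nt. Block 7 begins at 32154621 and was listed with many different ends. No exon or UTR annotation was used here, so these are the blocks as the deposited isoforms list them.

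Nearly all counts of the gene were in circles that begin at the start of block 2. The 8 circles that begin there held 21999 of 22206 counts, 99.1%. Of these 8, 5 form a nested series that ends in turn at blocks 2, 3, 4, 5 and 6, and these held 21960 counts. Block 2 alone (circle 1, 32090502 to 32094386, 3885 nt) had 13367 counts over the 4 libraries, more than any other circle in the table. Blocks 2 and 3 (circle 2, 32090502 to 32117287, 4033 nt) had 8275 counts and ranked 7 among all circles. Blocks 2 to 4 (circle 3, 32090502 to 32146340, 4111 nt) had 266 counts. Blocks 2 to 5 (circle 4, 32090502 to 32150033, 4243 nt) had 29 counts, and blocks 2 to 6 (circle 6, 32090502 to 32152528, 4349 nt) had 23. Within the series, 60.9% of the counts thus ended at block 2, 37.7% at block 3 and 1.21% at block 4.

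**Figure D1:**
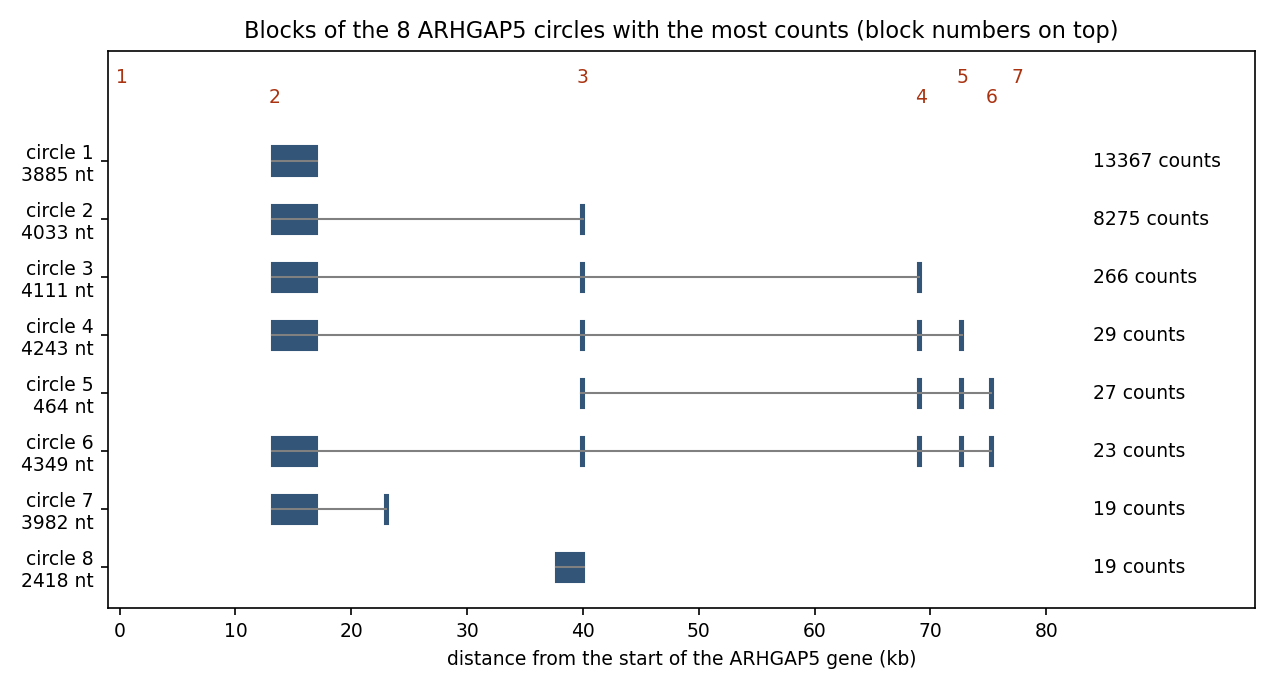
Blocks of the 8 ARHGAP5 circles with the most counts, drawn from the first isoform of each, against the distance in kb from the gene start. Block numbers stand on top, lines join the blocks of 1 circle, and blocks under 0.25 kb are drawn 0.25 kb wide; 6 of the 8 circles contain the whole of block 2, and counts over the 4 libraries fall from 13367 for circle 1 to 19 for circles 7 and 8.

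These circles are long for this table. The median circle with a count was 1349 nt, and 4.94% of all circles with a count were as long as circle 1 or longer. Circle 1 is listed with a second isoform that skips 1188 nt inside block 2 (32092873 to 32094060) and is 2697 nt long. The skipped length is a multiple of 3. Circle 6 is also listed with a second isoform, of 798 nt, which skips 3403 nt of block 2 and leaves out block 3. The table gives no count per isoform, so how the 13367 counts of circle 1 divide is not analysed here. Block 3 was listed with a start at 32117140 in 19 circles and at 32117143, 3 nt further on, in 5 circles with 9 counts in all.

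The splice-site field differed among the circles of the locus. It read AG-GT, the usual acceptor and donor pair, with both offsets at 0 and no asterisk for 5 circles, which held 8620 counts. A further 74 circles carried an asterisk, whose meaning the table does not state, and held 217 counts (0.977%). Circle 1 had the entry None, with a strand given. An intron circle with 2 counts (32092361 to 32094356) also had the entry None, without a strand. Over all circles, 1186 rows have this entry, and circle 1 is the 1 among them that has a strand.

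Circles 1 and 2 held most of the ARHGAP5 counts of each library, at levels that differed widely. All ARHGAP5 circles together had 610 counts in control replicate 1 and 3653 in control replicate 2, against 8395 and 9548 in the knockdowns in the same order. Per 100000 counts of the library this was 129 and 656 in the controls against 2969 and 2445 in the knockdowns. Each knockdown library exceeded each control, and the 2 knockdowns differed by 1.21-fold. The controls differed from each other by 5.08-fold, more than either knockdown differed from control replicate 2 (4.52-fold and 3.72-fold). Against control replicate 1 the knockdowns were 23.0-fold and 18.9-fold higher. Among host genes, ranked by the counts of circles that name 1 gene, ARHGAP5 stood at rank 59 and 8 in the controls, and first in both knockdowns (rank 1). Its circles made up 2.97% and 2.44% of all counts in the knockdown libraries.

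By group, the level was 393 ± 373 per 100000 in controls against 2707 ± 371 in knockdowns (SD, n = 2). In edgeR's quasi-likelihood fit over 5911 host genes the log2 fold change was 2.99 ± 0.92 (SE), and leaving out control replicate 1 gave 2.25, control replicate 2 5.00. The median of all host genes in that fit was -0.27, and -0.66 with library-size scaling, where ARHGAP5 stood at 2.74. Groups without overlap and with the knockdown higher were found for 15.9% of host genes, and a knockdown mean at least 4 times the control mean for 3.72%. Host genes past an adjusted p of 0.05 in edgeR and higher made up 1.47%, and ARHGAP5 was not one of them. Since this contrast chose the gene, nothing is read from these shares. The low ARHGAP5 level of control replicate 1 went with its low exon share and high intron share, and with mitochondrial circles at 0.943% of its counts against at most 0.107% elsewhere. The summed epithelial marker circles were lower in both knockdowns. The part of these values in the difference was not tested. A larger number of cells that make a circle and more circle per cell cannot be told apart in these bulk libraries.

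Circle 1 had 335 and 2163 counts in controls against 5090 and 5779 in knockdowns. This was 70.9 and 389 per 100000 in controls against 1800 and 1480 in knockdowns, so the groups did not overlap. Its rank among all circles was 53 and 9 in the controls and 1 in either knockdown. Its fitted log2 fold change was 2.90 ± 0.69 (SE), 2.24 without control replicate 1 and 4.38 without control replicate 2. Circle 2 had 216 and 1389 counts in controls against 3115 and 3555 in knockdowns, or 45.7, 250, 1102 and 910 per 100000. Its rank was 109 and 19 in the controls and 2 in either knockdown, directly after circle 1. Its fitted log2 fold change of 2.83 ± 0.69 (SE) lay within the error of that of circle 1, and was 2.18 and 4.31 without control replicates 1 and 2 in turn.

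Circle 3, which adds block 4 across the 28975 nt gap, had 1 and 22 counts in controls against 117 and 126 in knockdowns. Per 100000 these were 0.212 and 3.95 in controls against 41.4 and 32.3 in knockdowns. The groups did not overlap, and the controls again lay far apart. Its fitted log2 fold change was 4.12 ± 0.86 (SE), 3.37 without control replicate 1 and 7.09 without control replicate 2, where 1 control count is left. Knockdown replicates 1 and 2 were 10.5-fold and 8.16-fold above control replicate 2, beside 4.63-fold and 3.81-fold for circle 1.

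The longer nested circles were rare in every library. Circle 4 had 0 and 5 counts in controls against 16 and 8 in knockdowns. Circle 6 had 0 and 7 counts in controls against 10 and 6 in knockdowns. Both lay higher in the knockdowns per 100000 without overlap. Circle 4 stood at 5.66 and 2.05 there, against at most 0.898 in the controls. Circle 6 stood at 3.54 and 1.54, against at most 1.26 in the controls. For circle 6 the separation rests on the scaling, since control replicate 2 had 7 counts and knockdown replicate 2 had 6. Circle 5 (32117140 to 32152528, 464 nt) joins blocks 3 to 6 and leaves out block 2. It had 1 and 2 counts in controls against 8 and 16 in knockdowns, and was the most abundant circle of the gene without any part of block 2.

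Circles 7 and 8 are typed as intron circles and differed from the nested series. Circle 7 (32090502 to 32100342, 3982 nt) joins block 2 to 97 nt at 32100246 to 32100342, outside the 7 blocks. It had 3 and 5 counts in controls against 2 and 9 in knockdowns, and its groups overlapped. Circle 8 (32114968 to 32117385, 2418 nt) runs from the intron across block 3. It had 19 counts in control replicate 1 and 0 in the other 3 libraries. A circle from inside block 2 into block 7 (32093150 to 32155214, 2295 nt) likewise had 18 counts in control replicate 2 and 0 elsewhere.

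**Figure D2:**
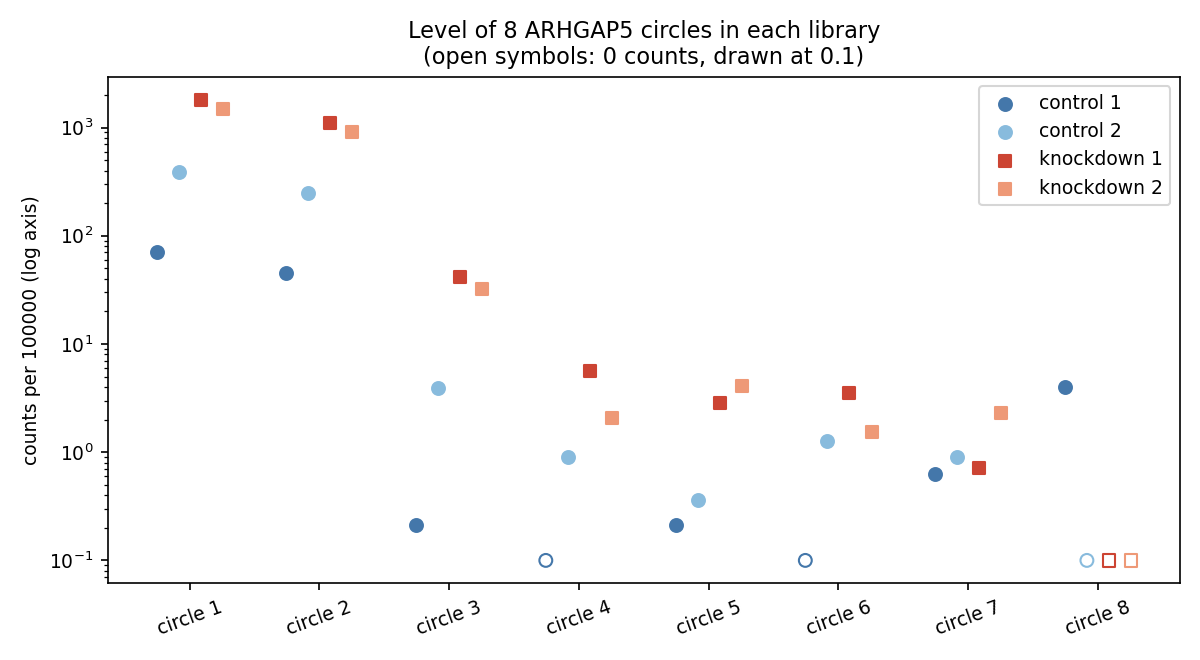
Counts per 100000 (log axis) of the 8 ARHGAP5 circles with the most counts, 1 point per library, with circles for controls, squares for knockdowns and open symbols for 0 counts (drawn at 0.1). Circles 1 to 6 lie higher in both knockdown libraries than in both controls, circle 7 overlaps, and circle 8 was seen in control replicate 1 alone.

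With at least 10 counts over the libraries, 11 of the 81 circles could be placed by group. In 8 of these the knockdown libraries lay above both controls, 0 lay below both, and 3 overlapped, beside 23.2% higher and 22.9% lower over all 21576 circles with as many counts. The 3 members with at least 40 counts, circles 1 to 3, were all higher, beside 29.7% of circles at that count. The filter favours members that are high in the knockdown, and the contrast chose the gene, so the count is no support for it. Of the other 70 circles, 55 had between 1 and 9 counts, 138 in all, and 15 had 0 counts in the 4 libraries.

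**Figure D3:**
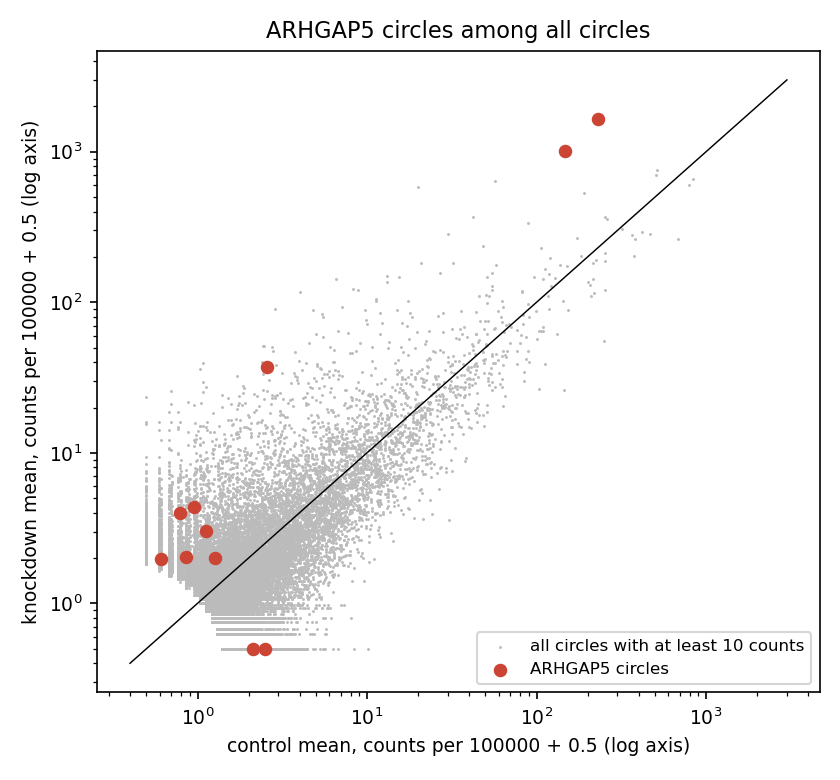
Mean level of each circle with at least 10 counts in the controls (x) and in the knockdowns (y), both as counts per 100000 plus 0.5 on log axes, with the 11 ARHGAP5 circles in red and the line of equal levels. Circles 1 and 2 have the 2 highest knockdown means of all circles drawn, at 1640 and 1006 per 100000.

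The balance of circles 1 and 2 was nearly the same in the 4 libraries, in spite of their different levels. The ratio of circle 1 to circle 2 was 1.55 and 1.56 in the controls against 1.63 in each knockdown. As a share of the sum of both, circle 1 made up 60.8% (exact 95% interval 56.6 to 64.9) and 60.9% (59.3 to 62.5) in the controls, and 62.0% (61.0 to 63.1) and 61.9% (60.9 to 62.9) in the knockdowns. Every interval overlaps every other, but each covers only the counting error of its own library. The ratio was slightly higher in both knockdowns than in both controls. Whether the end of the circles shifted between blocks 2 and 3 was not tested.

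The share of circle 3 was higher in both knockdowns. It made up 0.164% (exact 95% interval 0.00415 to 0.910) and 0.602% (0.378 to 0.910) of the ARHGAP5 counts in the controls, and 1.39% (1.15 to 1.67) and 1.32% (1.10 to 1.57) in the knockdowns. Both knockdown intervals lie above both control intervals, which cover counting error only. Relative to circle 2, from which it differs by block 4, it stood at 0.463% and 1.58% in the controls against 3.76% and 3.54% in the knockdowns. In absolute terms it stayed a small part of the output in all 4 libraries.

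Circles outside the first 3 made up 9.51% and 2.16% of the ARHGAP5 counts in controls against 0.870% and 0.922% in knockdowns. Their level was less uneven than that of circle 1, at 12.3 and 14.2 per 100000 in the controls against 25.8 and 22.5 in the knockdowns. The controls here differed by 1.16-fold, beside 5.48-fold for circle 1. The control sums came in part from different circles. Those seen in no other library gave 49 of 58 such counts in control replicate 1 and 38 of 79 in control replicate 2. In the knockdowns such circles gave 11 of 73 and 17 of 88. Taken over all circles of the gene, circle 1 held 54.9% and 59.2% of the counts in controls against 60.6% and 60.5% in knockdowns. The mean difference of 3.51 percentage points was 1.37 without control replicate 1, beside an SD of 3.04 between the controls.

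**Figure D4:**
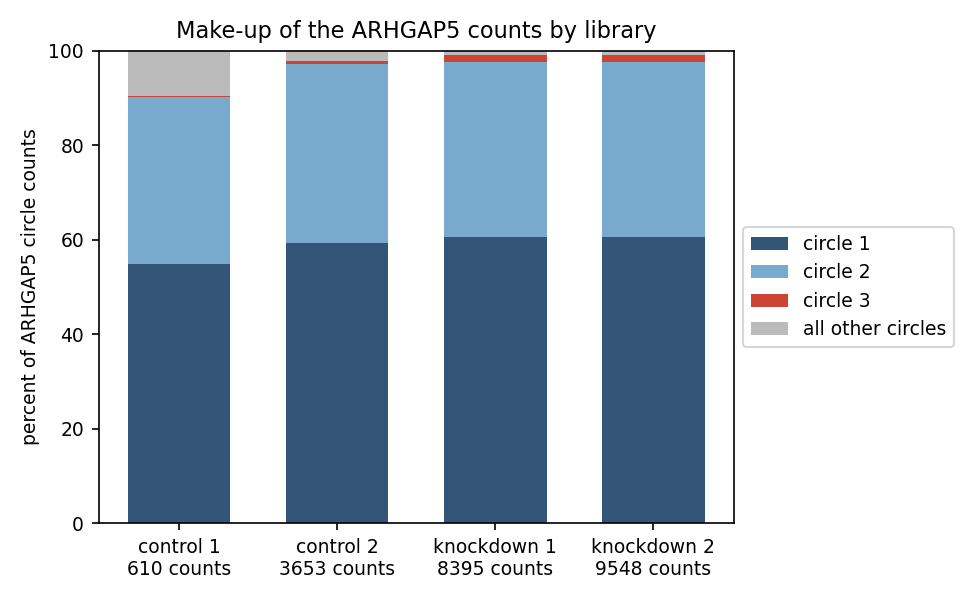
Share of the ARHGAP5 counts (percent, y axis) held by circles 1, 2 and 3 and by all other circles, 1 bar per library with its ARHGAP5 counts beneath. Circles 1 and 2 fill most of every bar, the other circles take 9.51% in control replicate 1 and at most 2.16% elsewhere, and circle 3 is visible in the knockdown bars at 1.39% and 1.32%.

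The rare circles were mostly seen in 1 library. Of the 66 circles with a count, 41 were found in 1 library alone and held 115 counts, and 6 were found in all 4 and held 21963. Control replicates 1 and 2 had 12 and 13 circles of their own, with 49 and 38 counts, and the knockdowns 7 and 9, with 11 and 17 counts. Circles seen in both knockdowns and neither control numbered 8, with 20 counts in all, and 1 was seen in both controls and neither knockdown. The same shares over all circles are not given here and the contrast chose the gene, so nothing is read from these numbers. In all, the controls had 22 and 29 different circles, and the knockdowns 27 and 32. At an equal depth of 282737 counts per library the expected numbers were 16.9 and 21.6 in controls against 27.0 and 27.6 in knockdowns. At an equal 610 ARHGAP5 counts they were 22.0 and 12.1 in controls against 7.37 and 7.78 in knockdowns, so the order of the groups turned with the depth that was held equal.

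A set of 34 circles other than circle 1 consists of 1 stretch inside block 2, and 25 of them had counts, 83 in all. Their counts were 7 and 24 in controls against 19 and 33 in knockdowns, or 1.48, 4.31, 6.72 and 8.45 per 100000. This level was higher in both knockdowns than in both controls. Relative to circle 1 these circles stood at 2.09% and 1.11% in controls against 0.373% and 0.571% in knockdowns. Circle 1 holds most of the counts on which the gene was chosen, so nothing is read from this lower ratio. Circles that end in block 7 numbered 23, of which 21 had counts. They had 18 and 30 counts in controls against 12 and 5 in knockdowns, or 3.81, 5.39, 4.24 and 1.28 per 100000. Here the groups overlapped. In control replicate 2, 18 of the 30 counts came from a single circle (32093150 to 32155214) that was seen in no other library.

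Intron circles of the gene had 32 and 10 counts in controls against 7 and 15 in knockdowns, or 6.77, 1.80, 2.48 and 3.84 per 100000. Control replicate 1 was the highest, as it was for intron circles over the whole library, and circle 8 gave 19 of its 32 counts.

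Circle length was set beside these values, since the 5 nested circles are all long. Other circles within 10% of the length of circle 1 and with at least 10 counts numbered 629. Their median log2 fold change was -0.23, against -0.41 for all circles, and their groups did not overlap with the knockdown higher in 26.1%, against 23.2% of all circles. With the knockdown lower, the groups did not overlap in 11% of them, against 22.9% of all circles. Circles as long as circle 1 or longer, without those of ARHGAP5, took 4.74% and 3.53% of the counts in controls against 6.10% and 3.84% in knockdowns, and the groups overlapped.

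The host genes whose pattern over the 4 libraries was most like that of ARHGAP5 were found among 2042 genes with at least 100 counts. Likeness was the mean absolute difference, over the 4 libraries, of log2(counts per 100000 + 0.5) centred on the mean of each gene, and its median over these genes was 1.74. The nearest was ZNF644, a zinc finger protein, at 0.14, with 49.1 and 221 per 100000 in controls against 907 and 710 in knockdowns. Its most abundant circle, of 3705 nt, is also long. SUV39H2, a histone methyltransferase, followed at 0.17 with 3 and 32 counts in controls against 55 and 88 in knockdowns. CEP162, a centriole protein, stood at 0.24 and DEPDC1 at 0.31. SENP6, a SUMO protease, stood at 0.33, with 42.1 and 161 per 100000 in controls against 1132 and 1274 in knockdowns. In these 4 the most abundant circle had between 428 and 1092 nt. All 5 share with ARHGAP5 a control replicate 1 below control replicate 2, which lies below both knockdowns. They were picked for likeness over these same 4 libraries, so this order reflects the choice.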

How the data were processed

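Circular RNA was measured in 4 nanopore libraries, 2 controls and 2 HNRNPL knockdowns. The authors deposited raw counts per back-splice position, with CIRI-long named as the caller in every row, per the file columns. GRCh38.p14 and DESeq2 are named, with no role, in the submitters' processing notes. The base caller, aligner and filters are not given in the sources used here. Library totals were 472428 and 556578 in controls and 282737 and 390547 in knockdowns. A second deposited table holds the same counts rescaled and was not used. Groups came from the sample titles, and counts per 100000 were computed from the counts.

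Host gene counts summed the circles that are not antisense and name 1 gene. Host genes and circles were fitted with edgeR 4.0.16 (R 4.3.3), quasi-likelihood with TMM and Benjamini-Hochberg adjustment over all features with at least 10 counts. glmQLFit ran with its default dispersion method. Standard errors were derived from the F statistic. Exact binomial intervals (95%) cover counting error only. Expected numbers of circles at equal depth are closed-form hypergeometric values.

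The members and the marker lists were chosen with earlier results of these data known. Named circles are the 8 with the most counts, which include the 3 with at least 40 counts. A planned description of other host genes is not reported here. Alternatives tried were other scalings, DESeq2 1.42.0, the newer dispersion method, other count filters, other host gene sums, a replicate block and each library left out. The sequences of the circles are not printed because no genome was used here.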

Additional observations from a re-analysis of the deposited data

How the results depend on the processing

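Under every alternative that kept all 4 libraries, the log2 fold change of ARHGAP5 lay between 2.74 with library-size scaling and 3.52 with a replicate block. Its shift from the main value of 2.99 was smaller than the SD between the controls, 1.66 in log2. Leaving out each library in turn gave 2.25 to 5.00, the latter without control replicate 2. No label says that a replicate number marks a shared culture. Libraries of the same number deviated from their group means with a correlation of 0.0706 (4944 circles). With 2 libraries per group this value cannot decide whether the numbers mark a pairing, and the main fit assumed none. Circles of the gene that were higher without overlap numbered 8 of 11 at 10 counts, 3 of 3 at 40 counts and 18 of 66 with no count filter. Over all circles the share was 23.2% at 10 counts and 29.7% at 40 counts. It is not given without a filter, so nothing is read from that count. The difference in the share of circle 1 was 1.99 percentage points in exon circles, 1.80 in circles with at least 10 counts, and 1.37 to 5.66 with each library left out. Circle 7 had a log2 fold change of 0.94 that reversed to -0.05 without knockdown replicate 2, and -0.05 to 1.69 is its range over the libraries left out. Apart from fewer circles or samples entering, the cause was not tested. Members with under 10 counts are limited by depth.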

Other observations

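Antisense circles over ARHGAP5 were listed at 13 positions and were left out of the counts above. They had 8 and 12 counts in controls against 8 and 3 in knockdowns, or 1.69 and 2.16 per 100000 in controls against 2.83 and 0.768 in knockdowns, and the groups overlapped. The first block of the gene was seen in 1 circle, which runs into block 2 (32077304 to 32092344), with 4 counts in knockdown replicate 2 and 0 in the other 3 libraries.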
